A study of Homo sapiens with 12 samples.

Results

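The transcriptome of HEK293 cells transfected with PEG10 gag was compared with that of cells given a control plasmid. Members were the genes of the count table other than *PEG10* itself, 26484 of 26485, read in the 3 gag and 3 control libraries of a series of 12. Of these genes, 17175 passed a filter on low counts and were tested.

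*PEG10* is a paternally expressed gene that mammals took over from a retrotransposon of the Ty3 family. Its gag reading frame encodes a capsid-like protein that ends in a nucleocapsid region with a zinc knuckle, and programmed ribosomal frameshifting on the same RNA yields a longer gag-pol protein. The protein assembles into virus-like particles, is needed for the placenta and is degraded with the help of ubiquilin 2.

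HEK293 is a human line derived from embryonic kidney, and all libraries were of wild-type cells. Gag cells received a plasmid for PEG10 gag and control cells one for LifeAct-Dendra2, in which the fluorescent protein Dendra2 carries a short peptide that binds actin filaments, both driven by a CMV promoter. The other 6 libraries were of cells with PEG10 gag-pol or with NC, the nucleocapsid end of gag alone. Every culture had 1 μg of plasmid by lipofection and was harvested after 48 hr. The series' design gives 3 passages of cells, and the replicate number was taken to mark the passage, which is not stated for single libraries. Because the control expresses LifeAct-Dendra2, the presence of gag and the absence of LifeAct-Dendra2 cannot be told apart in this comparison. A pCDNA control is also named in the study's methods, and the labels were followed here. In bulk RNA, a change in all cells and a larger one in the transfected cells alone cannot be told apart either.

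The libraries held 30625725 to 41708839 counts on genes across both groups. *PEG10* took 0.0306% ± 0.00658 (SD, n = 3) of the counts in control and 5.27% ± 1.29 in gag, so gag and control libraries followed their labels. With gag-pol it took 4.54% ± 2.46, so this share cannot tell gag from gag-pol. The HEK293 markers, among them the intermediate filament gene *VIM* and the keratin gene *KRT8*, summed to between 942 and 1140 CPM (counts scaled to the library total) in control and between 997 and 1070 in gag. Of the markers of other cells, those of blood summed to 3.52 to 15.1 CPM in control and 3.43 to 12.2 with gag, of endothelium to 0.336 to 1.23 and 0.974 to 1.76, of hepatocytes to 3.67 to 6.12 and 3.62 to 3.70, and of fibroblasts to 28.4 to 56.0 and 27.3 to 28.7. At most 10 counts in every library were found for 4 of 5 blood markers, 2 of 4 endothelial (*CDH5* and *TEK*), 1 of 4 hepatocyte (*APOA1*) and 2 of 5 fibroblast markers (*DCN* and *LUM*). Others were above it in the 6 gag and control libraries, such as the monocyte gene *CD14* at 97 to 499 counts, the fibroblast collagen gene *COL1A1* at 778 to 1498 and the transferrin gene *TF* at 49 to 123. The part of such cells in the results was not tested.

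One gag library stood apart in genes of heart muscle. In gag replicate 2, 27 genes were at least 5 times as high as in each of the other 11 libraries, with at least 50 scaled counts, against 1 such gene in gag replicate 1 and 0 in the other 10. They were led by *MYH6*, an atrial myosin heavy chain, with 4864 counts against at most 14 elsewhere, and by *ACTC1*, cardiac actin, with 4742 against at most 33. *TNNT2*, cardiac troponin T, had 1609 against at most 8. The 27 genes together made up 0.0485% of that library, and no more than 0.000562% of any other. Of these genes, 10 passed the filter and 0 were called changed with gag. Where these counts came from was not tested, and the number of changed genes is given below with and without this library.

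Few genes were called changed with gag, and most of the called changes were small. In edgeR's quasi-likelihood test with construct and replicate number as terms, 185 genes (1.08% of those tested) differed from control at a Benjamini-Hochberg adjusted p under 0.05. Of these, 119 were higher with gag (0.693% of genes tested) and 66 lower (0.384%). At an unadjusted p under 0.05 in the same test, 7.59% of genes tested were higher and 6.07% lower. The genes that were not called thus include some that may have changed. The median size of the log2 fold change of the 185 genes was 0.49, and 22 of them changed by at least 1 on the log2 scale. All 185 moved the same way in the 3 same-numbered pairs of libraries. In 114 of the 185 (61.6%) the 3 gag libraries did not overlap the 3 control libraries, against 7.1% of all genes tested. These shares come from the contrast that made the calls and describe it only.

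**Figure D1:**
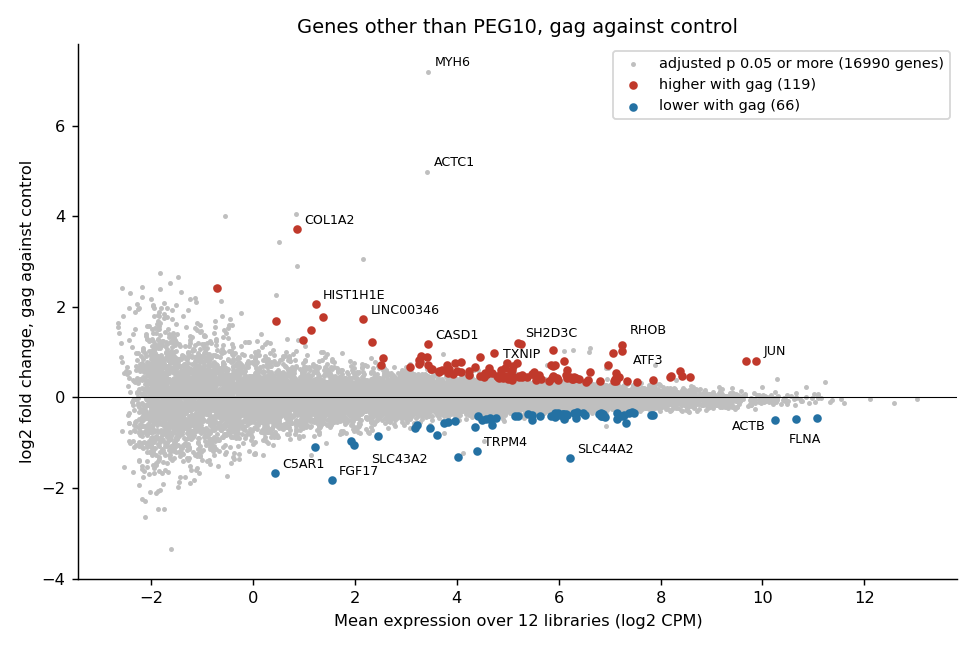
Log2 fold change between gag and control against mean expression over the 12 libraries (log2 CPM), 1 point per gene other than *PEG10*. The 119 genes that were higher (red) and the 66 that were lower (blue) at an adjusted p under 0.05 lie mostly within 1 of zero on the log2 scale, and *SLC44A2* and *SLC43A2* are the lowest called genes above 4 log2 CPM; the grey points at the top are *MYH6* (7.19) and *ACTC1* (4.98), high in gag replicate 2 only.

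The calls rested on the replicate numbers and on single libraries. Without the replicate number in the model 1 gene was called, *SLC44A2*. Without gag replicate 2, the library with the heart muscle genes, 91 genes were called, of which 84 were among the 185. A group of 18 genes was called with each of the 12 libraries and each of the 3 replicate numbers left out in turn. These were *DNAH17-AS1*, *SH2D3C*, *C11orf96*, *CASD1*, *TNFRSF12A*, *ATF3*, *TXNIP*, *HSPA1A*, *FRMD1*, *COL1A2*, *DUSP1*, *CDC37L1*, *RELB*, *TRIB1* and *ZNF239* among the higher, and *SLC44A2*, *SLC43A2* and *TRPM4* among the lower.

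The firmest falls were in membrane transporters and a channel. *SLC44A2*, a choline transporter-like protein (chr19:10602457-10644557, forward strand), had normalized counts of 5631, 4707 and 4181 in control replicates 1 to 3 and 1818, 1873 and 2013 in gag. Every control library was thus above every gag library, by a wide margin. The log2 fold change was -1.35 ± 0.10 (SE; adjusted p = 2.08e-08), the smallest adjusted p of the comparison.

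*SLC43A2*, a system L transporter of large neutral amino acids (chr17:1569268-1628886, reverse strand), was at 1371, 907 and 891 in control and at 521, 415 and 329 with gag. Its groups were separate as well, and it fell by 1.32 on the log2 scale (SE 0.13, adjusted p = 1.1e-06). *TRPM4*, a calcium-activated cation channel (chr19:49157741-49211836, forward strand), was at 1073, 1352 and 1058 in control and at 423, 682 and 450 with gag. It fell by 1.18 (SE 0.11, adjusted p = 8.18e-07), again with no overlap.

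The other transporters of the same list did not pass the test. Of 25 amino acid and choline transporters tested, 2 were called lower and 0 higher, against 0.384% and 0.693% of all genes tested. The median log2 fold change was -0.13, against 0.003 over all genes tested. The 5 choline transporter-like genes had a median of -0.46. *SLC7A5*, the light chain of the main system L transporter, had a log2 fold change of 0.00 (adjusted p = 0.994), and *SLC3A2*, the shared heavy chain, one of -0.24 (adjusted p = 0.35). Of 19 TRPM and calcium entry channels, *TRPM4* alone was called, against the same shares of all genes tested. *TRPM7* had a log2 fold change of -0.11 (adjusted p = 0.581).

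**Figure D2:**
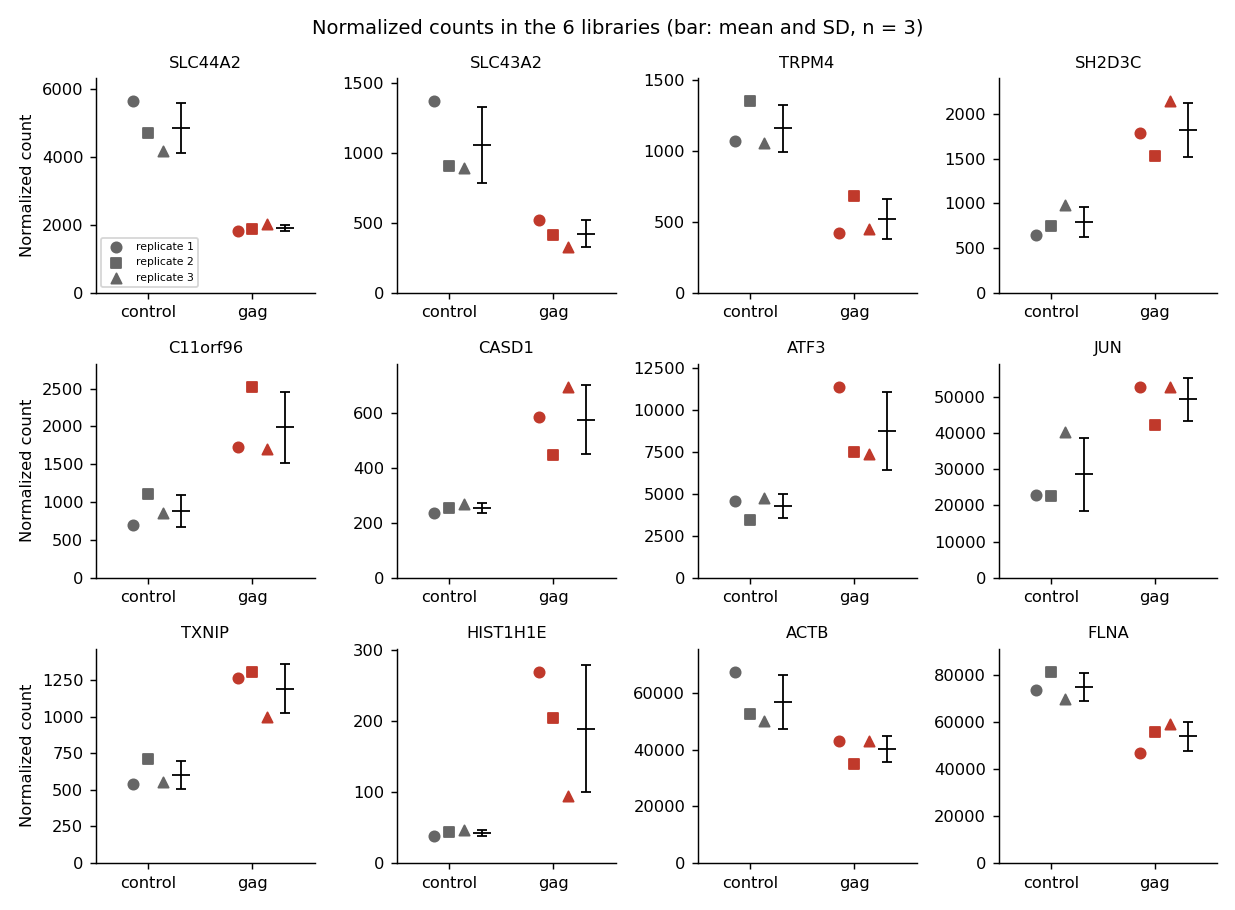
Normalized counts of 12 genes in the 3 control (grey) and 3 gag (red) libraries, with a marker shape for each replicate number and a bar for the mean and SD (n = 3). In each of the 12 panels the gag points lie wholly above or wholly below the control points; *SLC44A2* runs from 4181 to 5631 in control and from 1818 to 2013 with gag.

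Several larger falls were in genes with fewer counts. *C5AR1*, the receptor for complement C5a, was at 94.5, 98.5 and 97.8 normalized counts in control and at 27.8, 29.4 and 34.0 with gag, and fell by 1.67 (SE 0.35, adjusted p = 0.0172). *FGF17*, a secreted fibroblast growth factor, was at 73.7, 135 and 526 in control and at 6.04, 33.3 and 224 with gag. Its values varied more between replicate numbers than between constructs, so its groups overlapped although every pair fell, and its log2 fold change was -1.82 ± 0.32 (adjusted p = 0.00493).

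*FBXO2*, a ubiquitin ligase subunit that binds glycoproteins, fell by 1.05 (SE 0.21, adjusted p = 0.013). *SYN1*, which encodes the synaptic vesicle protein synapsin I, fell by 0.95 (SE 0.22, adjusted p = 0.0293). It was the 1 call among 36 genes of the neuronal cytoskeleton and vesicles, against 0.384% of all genes tested called lower. *ATP1B2*, a beta subunit of the sodium pump, fell by 0.62, *STS*, steroid sulfatase, by 0.67 and *SLC22A17*, a receptor for lipocalin 2, by 0.64. *LRRC16B*, a regulator of actin capping, was at 603 to 727 in control and at 324 to 411 with gag, and fell by 0.82 (SE 0.15, adjusted p = 0.00557). *DOK3*, an adaptor of immune cells, fell by 0.68, *OGDHL*, related to a dehydrogenase of the citric acid cycle, by 0.60 and *LOC100130238* by 0.84. Among the more abundant genes was *PPDPF*, at 7753, 7471 and 4619 normalized counts in control and 4810, 5176 and 3329 with gag (log2 fold change -0.56 ± 0.08, adjusted p = 0.000271). Its lowest control value lay below the higher gag values, but each gag library was below its own numbered control.

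Genes of the actin cytoskeleton were among the most abundant that fell. *ACTB*, cytoplasmic beta-actin, was at 67460, 52691 and 49962 in control and at 42907, 34885 and 42912 with gag, without overlap, and fell by 0.49 (SE 0.09, adjusted p = 0.00523). *FLNA*, the actin cross-linker filamin A, was at 73772, 81383 and 69702 and at 46930, 55631 and 59050, and fell by 0.48 (SE 0.09, adjusted p = 0.00493). *ACTG1*, gamma-actin, fell by 0.44, *WDR1*, a partner of cofilin in filament disassembly, by 0.48 and *CNN2*, calponin 2, by 0.42.

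Of 63 actin cytoskeleton genes tested, 5 were lower and 2 higher, against 0.384% and 0.693% of all genes tested. The list was made after the values were seen and given no test, and its median log2 fold change was -0.10. The 2 that rose were *RHOB* and *RND3*, small GTPases that act on actin fibres. *RHOB* was at 3290, 3671 and 3879 in control and at 10138, 8369 and 6069 with gag (log2 fold change 1.16 ± 0.19, adjusted p = 0.0351). The median of the 63 genes was -0.17 in pair 1, -0.16 in pair 2 and 0.004 in pair 3. The control plasmid of this comparison encodes an actin-binding peptide, and its part in these values was not tested.

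*COL2A1*, the collagen of cartilage, was at 5014, 7174 and 6968 in control and at 3877, 5765 and 5412 with gag, and fell by 0.35 (SE 0.07, adjusted p = 0.0105). Among 34 collagens it was the 1 called lower, and *COL1A2*, treated below with the neighbors of *PEG10*, the 1 called higher. The median of the list was -0.16, and at an unadjusted p under 0.05 12 of its genes were lower and 1 higher, against 6.07% and 7.59% of all genes tested. *NOTCH3*, a Notch receptor, fell by 0.36 (SE 0.08, adjusted p = 0.0293) as the 1 call among 16 Notch pathway genes. Lysosomal genes, a list also made after the values were seen, had a median of -0.13. Of the 46 tested, 3 were called lower and 0 higher, against 0.384% and 0.693% of all genes tested. The lowered genes included *TPP1*, a peptidase (-0.40), and *GRN*, progranulin (-0.40).

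The rises were spread over more groups of genes. *SH2D3C*, an adaptor with an SH2 domain (chr9:127738317-127778710, reverse strand), was at 646, 744 and 979 in control and at 1788, 1537 and 2143 with gag. It rose by 1.21 ± 0.14 (adjusted p = 0.000271) with no overlap. *C11orf96*, a gene of unclear function on chromosome 11, was at 693, 1103 and 856 and at 1734, 2529 and 1702 (log2 fold change 1.17 ± 0.10, adjusted p = 2.95e-07), the smallest adjusted p among the rises. *SH3RF2*, a ubiquitin ligase with SH3 domains, rose by 1.22 ± 0.19 (adjusted p = 0.00122). *INHBA*, which encodes the activin A subunit, was at 16.6, 24.0 and 17.2 in control and at 65.3, 72.5 and 48.4 with gag (1.69 ± 0.38, adjusted p = 0.025), again with no overlap. *FRMD1* rose by 0.92 (adjusted p = 0.0031).

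2 of the largest rises were in long noncoding RNAs. *DNAH17-AS1* (chr17:78484882-78503056, forward strand) was at 63.3, 35.5 and 75.3 normalized counts in control and at 216, 146 and 223 with gag, a log2 fold change of 1.78 ± 0.25 (adjusted p = 0.00035). It lies across the dynein gene *DNAH17* on the other strand, whose own log2 fold change was 1.08 ± 0.23 (adjusted p = 0.095). As the strand setting of the counts is not given in the sources used here, reads of this pair of genes cannot be told apart. *LINC00346* was at 87.2, 65.7 and 98.9 in control and at 481, 198 and 206 with gag (log2 fold change 1.73 ± 0.23, adjusted p = 0.00028), where the first gag library was well above the others.

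Immediate early genes, which code for transcription factors switched on within minutes of a stimulus, were mostly above control. Of 27 tested, 4 were called higher and 0 lower, against 0.693% and 0.384% of all genes tested. A further 9 were higher at an unadjusted p under 0.05, a level at which 7.59% of all genes tested were higher and 6.07% lower. All 27 had a log2 fold change above 0, against 50.7% of all genes tested, with a median of 0.36. The median was 0.53 in pair 1, 0.51 in pair 2 and 0.18 in pair 3.

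*ATF3*, a stress-induced factor (chr1:212565334-212620777, forward strand), was at 4579, 3445 and 4764 in control and at 11404, 7475 and 7369 with gag. It rose by 1.02 ± 0.12 (adjusted p = 0.000771), with every gag library above every control library. *JUN*, a subunit of AP-1, was at 22802, 22732 and 40357 and at 52889, 42316 and 52706, a rise of 0.82 ± 0.15 (adjusted p = 0.0266). Control replicate 3 was close to the lowest gag library but below it. *KLF6* rose by 0.69 ± 0.11 and *JUND* by 0.46 ± 0.08. The classical members *FOS*, *EGR1* and *FOSB* did not pass the test, with log2 fold changes of 0.74 (adjusted p = 0.473), 1.03 (adjusted p = 0.373) and 0.07 (adjusted p = 0.944). *EGR1* was at 8603, 2799 and 2001 with gag, so that 1 library held most of the difference.

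*DUSP1*, a phosphatase that switches off MAP kinases, was at 1767, 1601 and 2875 in control and at 3454, 3029 and 4162 with gag (log2 fold change 0.80 ± 0.12, adjusted p = 0.0028). It was the 1 call among 16 genes of feedback on ERK signaling, against 0.693% of all genes tested called higher. At an unadjusted p under 0.05, 7 of the 16 were higher and 0 lower, against 7.59% and 6.07% of all genes tested. The median of the 16 was 0.27. *SPRY2* and *DUSP6*, inhibitors in the same loop, had log2 fold changes of 0.22 (adjusted p = 0.315) and 0.07 (adjusted p = 0.913).

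4 of 23 p53 target genes were called higher and 0 lower, against 0.693% and 0.384% of all genes tested. The median over the list was 0.18. *GADD45A*, a growth arrest gene, was at 3086, 3571 and 4177 in control and at 5972, 5253 and 6537 with gag (log2 fold change 0.72 ± 0.10, adjusted p = 0.000608). *CDKN1A*, the cell cycle inhibitor p21, was at 2175, 2855 and 4481 and at 3626, 4037 and 6049. Both groups were highest in replicate 3 and overlapped, and its log2 fold change was 0.55 ± 0.09 (adjusted p = 0.0031). *AEN*, an exonuclease, rose by 0.54 ± 0.07 and *BTG2*, an antiproliferative gene, by 0.46 ± 0.08. *MDM2*, the ubiquitin ligase of p53, had a log2 fold change of 0.16 (adjusted p = 0.337).

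The BH3-only genes *PMAIP1* (Noxa) and *HRK* and the initiator caspase gene *CASP8* were the 3 calls among 24 apoptosis regulators. All 3 were higher, against 0.693% of all genes tested called higher, and the list was made after the values were seen. *PMAIP1* was at 10378, 11163 and 9608 in control and at 18812, 15532 and 12424 with gag, a log2 fold change of 0.58 ± 0.10 (adjusted p = 0.00309), without overlap. *HRK* rose by 0.54 ± 0.12 and *CASP8* by 0.46 ± 0.10.

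Within the integrated stress response, 3 of the 4 genes listed as transcription factors were called higher and 0 of the 22 listed as targets were called. Each gene had a single role in the list, so a factor that is also a target counts as a factor only. At an unadjusted p under 0.05, 7 of the 26 genes were higher and 2 lower, against 7.59% and 6.07% of all genes tested. Of 26 genes, *ATF3*, *CEBPB* (0.48 ± 0.10, adjusted p = 0.013) and *DDIT3*, which encodes CHOP (0.39 ± 0.09, adjusted p = 0.0229), were called. The 4 factors of the list had a median of 0.43 and the 22 targets one of -0.10. *ATF4* itself had a log2 fold change of 0.09 (adjusted p = 0.725), and *ASNS*, asparagine synthetase, one of -0.11 (adjusted p = 0.703). *TRIB3*, a target that binds ATF4, was at 0.35 (adjusted p = 0.0542).

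2 of 27 heat shock and chaperone genes, both of the HSP70 kind, were called higher, against 0.693% of all genes tested. *HSPA1A* was at 3481, 3285 and 2108 in control and at 8593, 6395 and 3394 with gag (log2 fold change 0.99 ± 0.13, adjusted p = 0.00332). *HSPA1B* was at 24841, 21693 and 13441 and at 52728, 37201 and 19395 (0.80 ± 0.13, adjusted p = 0.00557). For both, gag replicate 3 was in the range of the control libraries but above its own numbered control. These 2 genes are nearly identical, so their shares of the reads are uncertain. *DNAJB1*, an HSP40 that heat shock factor also controls, had a log2 fold change of 0.21 (adjusted p = 0.337), and *HSPA5*, the chaperone of the endoplasmic reticulum, one of 0.14 (adjusted p = 0.468). *HMOX1*, heme oxygenase, was the 1 call among 21 NRF2 genes (0.72 ± 0.16, adjusted p = 0.0293), at 502, 240 and 300 in control and at 1169, 359 and 371 with gag.

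*TXNIP*, an alpha-arrestin that limits glucose uptake and binds thioredoxin (chr1:145992435-145996579, reverse strand), was at 540, 710 and 550 in control and at 1266, 1307 and 1000 with gag. It rose by 0.99 ± 0.10 (adjusted p = 6.61e-06) without overlap. *ARRDC4*, its closest relative in regulation by the glucose sensor MondoA, was at 1992, 3826 and 1717 and at 2991, 4474 and 2240. Its spread over replicate numbers exceeded the shift with gag, and it rose by 0.39 ± 0.09 (adjusted p = 0.0327). The 2 genes were the calls among 10 of glucose response, against 0.693% of all genes tested called higher. The median of the 10 was 0.10.

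The other 3 of the 5 alpha-arrestins tested were not called. *ARRDC3*, which acts on beta-adrenergic receptors, was at 1709, 986 and 1385 in control and at 962, 614 and 573 with gag, a log2 fold change of -0.95 ± 0.22 that missed the threshold (adjusted p = 0.0804). Its antisense partner *ARRDC3-AS1* fell by 1.10 (SE 0.27, adjusted p = 0.0444), and the reads of the 2 cannot be told apart where they overlap. *ARRDC2* was at 0.09 (adjusted p = 0.746) and *ARRDC1* at -0.04 (adjusted p = 0.878). *DCLK1*, a microtubule-binding kinase of neurons that the study examines, was at 658, 1034 and 489 in control and at 644, 907 and 636 with gag (log2 fold change 0.03 ± 0.12, adjusted p = 0.942).

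Replication-dependent histone genes included some of the largest rises. Their mRNAs mostly end in a stem-loop instead of a poly(A) tail, so that libraries of poly(A) RNA hold few of their reads. Of 49 tested, 4 were called higher and 0 lower, and 20 were higher at an unadjusted p under 0.05. Over all genes tested, 0.693% were called higher and 7.59% were higher at the unadjusted level. *HIST1H1E*, a linker histone, was at 37.4, 43.5 and 46.2 normalized counts in control and at 270, 205 and 93.6 with gag (log2 fold change 2.05 ± 0.30, adjusted p = 0.000577). *HIST2H2AC*, an H2A gene, was at 37.4, 65.7 and 37.6 and at 160, 150 and 87.5 (1.50 ± 0.31, adjusted p = 0.017). *HIST1H2AH* (2.42 ± 0.52) and *HIST1H4E* (1.28 ± 0.29) were the other calls. Gag replicate 3 was the lowest of the gag libraries for each of the 4. The median of the 49 genes was 0.92 in pair 1, 0.63 in pair 2 and 0.02 in pair 3. DNA replication genes, which rise in the same phase of the cell cycle, had 0 calls of 35 and a median of -0.003, with 5 higher and 6 lower at an unadjusted p under 0.05 and *E2F2* (0.34, adjusted p = 0.0645) nearest to the threshold.

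**Figure D3:**
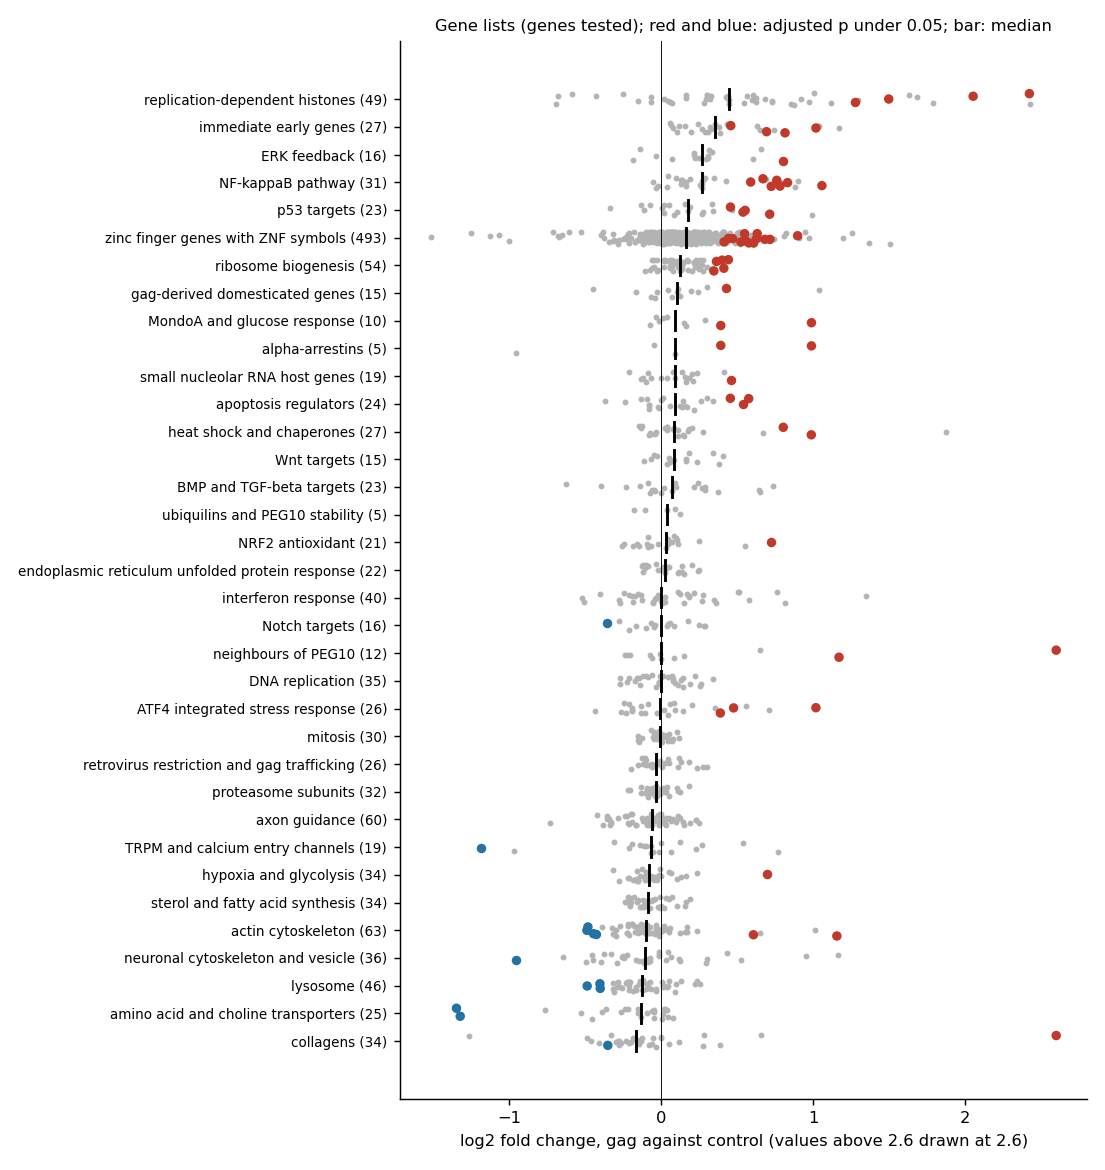
Log2 fold change between gag and control of each tested gene in the gene lists, 1 row per list with the number tested in brackets, a black bar at the median, and red or blue points for genes called higher or lower. The 5 lists of cell type markers are not drawn. Of the lists drawn, the medians of replication-dependent histones (0.45) and immediate early genes (0.36) are the highest and those of collagens (-0.16) the lowest; values above 2.6 (*COL1A2*, 3.71) are drawn at 2.6.

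Genes of NF-kappaB signaling were called in 7 of 31 cases, all higher, in a list made after the values were seen, against 0.693% of all genes tested called higher. *RELB*, a subunit of the noncanonical pathway, was at 566, 1055 and 1320 in control and at 1104, 1734 and 2014 with gag (log2 fold change 0.76 ± 0.10, adjusted p = 0.000232). The groups overlapped, and replicate 1 was the lowest of each. *TNFRSF12A*, the receptor of TWEAK, was at 1092, 1445 and 2515 and at 3008, 3108 and 3974 (1.06 ± 0.14, adjusted p = 0.00248), without overlap. *TNFRSF9* (0.83), *LIF* (0.78), *PTX3* (0.73), *CSF1* (0.67) and *CD83* (0.59), secreted or surface proteins, were the others. *NFKBIA*, the inhibitor of the canonical pathway, had a log2 fold change of 0.27 (adjusted p = 0.752), and *TNFAIP3*, another, one of 0.78 (adjusted p = 0.0549).

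13 of 493 zinc finger genes with *ZNF* symbols were higher and 0 lower (2.64% higher, against 0.693% of all genes tested), led by *ZNF239*. It was at 689, 656 and 424 in control and at 1488, 1156 and 719 with gag (log2 fold change 0.90 ± 0.12, adjusted p = 0.0003), with the lowest gag value 30 counts above the highest control value. The median of the 493 genes was 0.16, and it was 0.28, 0.17 and 0.002 in pairs 1, 2 and 3. Ribosome biogenesis genes, whose median was 0.12, had 5 calls of 54, all higher, against 0.693% of all genes tested called higher. They were *GPATCH4* (0.41), *NOM1* (0.40), *URB1* (0.36), *RRP12* (0.35) and *ZNF593* (0.44), and none rose by more than 0.5. *ZNF593* was counted in both lists. Both lists were made after the values were seen.

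Domesticated gag genes other than *PEG10* had 1 call of 15, in the higher direction, against 0.693% of all genes tested called higher. *ZCCHC12*, a zinc knuckle gene of the PNMA family, was at 2097, 2219 and 2596 in control and at 3320, 2345 and 3827 with gag (log2 fold change 0.43 ± 0.10, adjusted p = 0.0457), and gag replicate 2 lay within the control range. *ARC*, whose gag-like protein forms capsids in neurons, was at 1662, 1907 and 2948 and at 4072, 4472 and 4365. Its groups did not overlap, yet its log2 fold change of 1.04 ± 0.23 missed the threshold (adjusted p = 0.0965).

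Lists with no call were the unfolded protein response of the endoplasmic reticulum (22 genes, 0 at an unadjusted p under 0.05), interferon response (40 genes, 3 higher and 2 lower unadjusted) and sterol and fatty acid synthesis (34 genes, 1 and 2). Mitosis (30 genes) had 0 unadjusted in either direction, proteasome subunits (32 genes) 1 higher and 2 lower, and retrovirus restriction and gag trafficking (26 genes) 2 and 1. Of the 60 axon guidance genes, 3 were higher and 9 lower unadjusted, led by the semaphorin receptor *PLXNA3* (-0.36, adjusted p = 0.0771). Beside the unadjusted counts of these lists, 7.59% of all genes tested were higher and 6.07% lower at that level. *UBQLN2*, the ubiquilin that limits PEG10 protein, had a log2 fold change of -0.10 (adjusted p = 0.614), *UBQLN1* one of -0.18 (adjusted p = 0.358) and *UBQLN4* one of 0.04 (adjusted p = 0.871). The deubiquitinase gene *USP9X* was at 0.09 and the ubiquitin ligase gene *UBE3A* at 0.13, both not called. BMP and TGF-beta targets (23 genes) had 5 higher and 2 lower unadjusted and Wnt targets (15 genes) 2 and 0. The members with the smallest p in these lists were *ERN1*, *ISG20*, *SCD*, *PLK1*, *PSMD1*, *NEDD4L*, *KLF10* and *NKD2*, with log2 fold changes from -0.22 (*SCD*) to 0.76 (*ISG20*). The calls in the remaining lists were *ADM*, adrenomedullin, among 34 hypoxia and glycolysis genes (0.70, adjusted p = 0.0361) and *SNHG15* among 19 hosts of small nucleolar RNAs (0.46, adjusted p = 0.00718). Both were called higher, against 0.693% of all genes tested.

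Of 12 genes tested near *PEG10* on chromosome 7, 2 were called higher and 0 lower, against 0.693% and 0.384% of all genes tested. Both lie upstream of *PEG10*. *COL1A2*, the second chain of type I collagen (chr7:94394895-94431227, forward strand, 225.1 kb from *PEG10*), had 9, 10 and 9 raw counts in control and 118, 80 and 154 with gag, a log2 fold change of 3.71 ± 0.47 (adjusted p = 0.000294). It was the largest rise among called genes, from a level near the filter. *PEG10* itself had 11820, 14243 and 7817 raw counts in the same control libraries and 1815047, 1437939 and 2370308 in the gag libraries. Whether reads of *PEG10* were counted for *COL1A2* or for *CASD1* was not tested. *CASD1*, a sialic acid acetyltransferase (chr7:94509219-94557019, forward strand, 99.3 kb from *PEG10*), was at 236, 255 and 271 normalized counts in control and at 585, 448 and 698 with gag (1.17 ± 0.17, adjusted p = 0.00075). Neither gene's groups overlapped. *CASD1* overlaps *SGCE* on the other strand, and *SGCE* overlaps *PEG10*, so with the strand setting unknown the reads of the shared stretches cannot be told apart. *SGCE*, an imprinted gene, was at 1844, 1526 and 1640 and at 1650, 1595 and 1743, a log2 fold change of -0.01 (adjusted p = 0.991), and *PPP1R9A*, 237.5 kb downstream, was at 0.001 (adjusted p = 0.998). The other 8 genes of the list had log2 fold changes from -0.24 to 0.65 and were not called. They were *TFPI2* (0.65, adjusted p = 0.15), *GNG11*, *GNGT1*, *BET1*, *CALCR*, *PON2*, *PDK4* and *DYNC1I1* (-0.24, adjusted p = 0.751). The plot of these neighbors shows *COL1A2* and *CASD1* alone away from zero within 500 kb.

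**Figure D4:**
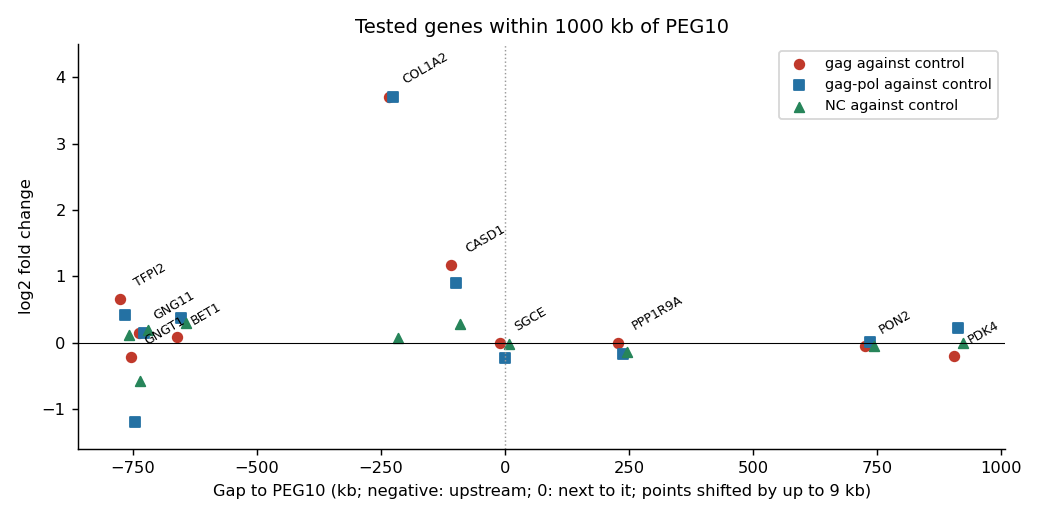
Log2 fold change against control of the tested genes within 1000 kb of *PEG10*, by gap in kb, for gag (red circles), gag-pol (blue squares) and NC (green triangles), labelled by gene. *COL1A2* lies at 3.71 with gag and 3.70 with gag-pol but at 0.08 with NC, and *CASD1* at 1.17, 0.89 and 0.28; the 3 comparisons share the control libraries.

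The other PEG10 constructs were set beside gag through direct contrasts in the same model. *PEG10* took 5.27% ± 1.29 (SD) of the counts with gag and 4.54% ± 2.46 with gag-pol (7.35%, 3.48% and 2.8% in replicates 1 to 3). With NC, the shortest insert, it took 0.310% ± 0.0757. The part of these levels in the contrasts was not tested. Gag differed from gag-pol in 1109 genes (6.46% of those tested) and from NC in 2897 (16.9%). Without gag replicate 1 these numbers were 122 and 939, and without the replicate number in the model 0 and 0. Among the 185 genes changed with gag against control, 42 (22.7%) differed between gag and gag-pol and 112 (60.5%) between gag and NC. The gag libraries enter both the choice of these 185 genes and the direct contrasts, so the shares are a description. A group of 38 genes differed from both constructs, of which 28 were raised with gag and above both and 8 were lowered with gag and below both.

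*ATF3* was one of the 28. Its log2 fold change against control was 1.02 with gag, 0.27 with gag-pol (adjusted p = 0.18) and 0.11 with NC (adjusted p = 0.6), and gag differed from gag-pol (adjusted p = 0.0051) and from NC (adjusted p = 0.00067). *HIST1H1E* was at 2.05, 0.46 and 0.44, *DNAH17-AS1* at 1.78, 0.37 and 0.04, and *TNFRSF12A* at 1.06, 0.33 and 0.11, each higher with gag than with either construct. The stress and death genes *GADD45A*, *CDKN1A*, *PMAIP1*, *HMOX1* and *CASP8* were in the same group. Of these, *GADD45A* also rose against control with gag-pol (0.36, adjusted p = 0.023) and NC (0.40, adjusted p = 0.0155), and the others were called with neither. *C11orf96*, in the group as well, was at 1.17 with gag, 0.80 with gag-pol (adjusted p = 5.17e-05) and 0.59 with NC (adjusted p = 0.00151). *HMOX1* was at 0.72 with gag, -0.01 with gag-pol and -0.29 with NC.

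*DDIT3* was at 0.39 with gag and at -0.24 with gag-pol, and the difference between these constructs passed the test (adjusted p = 0.00047). *SNHG15* was at 0.46, -0.32 and -0.19 and *H1F0*, a linker histone of resting cells, at 0.48, -0.43 and 0.00. The difference between gag and gag-pol had an adjusted p of 3.8e-05 for *SNHG15* and 1.1e-05 for *H1F0*. With gag-pol, *SNHG15* (adjusted p = 0.0202) and *H1F0* (adjusted p = 0.005) fell against control, and *DDIT3* did not pass that test (adjusted p = 0.069).

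Among the genes lower with gag than with both other constructs were *PPDPF* (-0.56, against -0.07 with gag-pol and -0.003 with NC), *COL2A1* (-0.35, 0.00 and 0.16), *MDK*, the growth factor midkine (-0.41, -0.05 and 0.09), and *TRPM4* (-1.18, -0.79 and -0.54). *TRPM4* fell with each construct at an adjusted p of 8.18e-07, 9.99e-05 and 0.00344. For *ARRDC4* the order was the other way: it was at 0.39 with gag and at 0.83 with both gag-pol and NC, and gag lay below gag-pol (adjusted p = 0.0076) and below NC (adjusted p = 0.003).

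For other genes changed by gag, the difference between gag and gag-pol missed the threshold. *SLC44A2* was at -1.35 with gag, -1.09 with gag-pol and -1.10 with NC, where the adjusted p of gag against gag-pol was 0.1 and against NC 0.088. *SLC43A2* was at -1.32, -1.03 and -1.24, *FLNA* at -0.48, -0.39 and -0.41 and *ACTB* at -0.49, -0.36 and -0.43. *TXNIP* was at 0.99 with gag and 1.07 with gag-pol, a difference that missed the threshold (adjusted p = 0.68), and at 0.65 with NC, one that passed it (adjusted p = 0.025). All 3 constructs were measured against the same 3 control libraries.

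**Figure D5:**
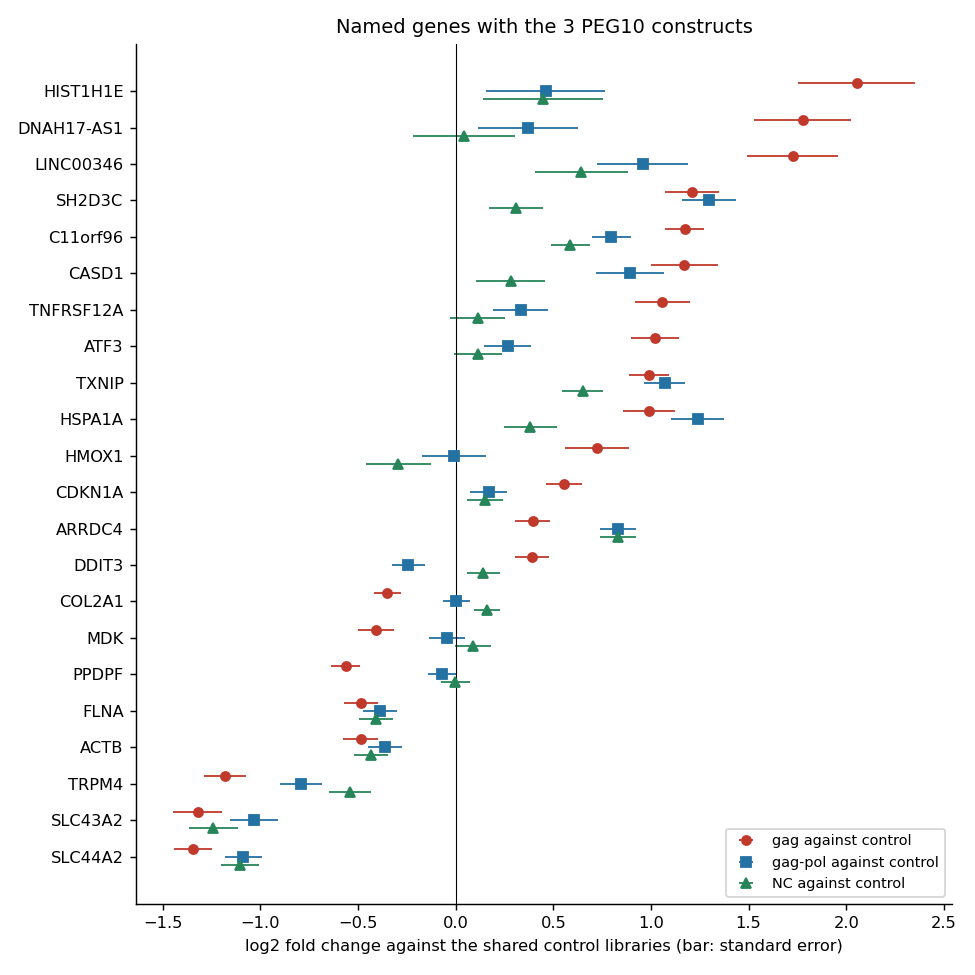
Log2 fold change against control of 22 genes with gag (red circles), gag-pol (blue squares) and NC (green triangles), with bars for the standard error. *ATF3*, *HIST1H1E* and *DNAH17-AS1* lie further right with gag than with the other constructs, whereas the 3 points of *SLC44A2* lie between -1.35 and -1.09.

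Promoters of a few of these genes are shown to set the moved groups beside their sequence. The 250 bases before each RefSeq transcription start in GRCh38.p14 were searched on both strands for CACGTG (E-box, bound by MondoA and its relatives), TGACGTCA (cyclic AMP response element), TGATGNAA (the core of the element bound by C/EBP and ATF factors), GAANNTTC (heat shock element core), TGACNNNGC (antioxidant response element core), GGGCGG (GC box), the CCAAT box (these 5 letters) and, for the TATA box, the letters TATAAA. Matches to the motifs other than the antioxidant core and the GC box are in capitals, in the direction of the gene, and none in capitals overlapped another in these 6 promoters.
*ATF3*, chr1:212565157-212565406, forward strand: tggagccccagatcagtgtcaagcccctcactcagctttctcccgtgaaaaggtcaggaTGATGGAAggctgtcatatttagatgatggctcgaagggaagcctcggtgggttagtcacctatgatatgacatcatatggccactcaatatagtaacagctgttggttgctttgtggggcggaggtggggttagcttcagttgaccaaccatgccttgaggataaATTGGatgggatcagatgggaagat
*DUSP1*, chr5:172771196-172771445, reverse strand: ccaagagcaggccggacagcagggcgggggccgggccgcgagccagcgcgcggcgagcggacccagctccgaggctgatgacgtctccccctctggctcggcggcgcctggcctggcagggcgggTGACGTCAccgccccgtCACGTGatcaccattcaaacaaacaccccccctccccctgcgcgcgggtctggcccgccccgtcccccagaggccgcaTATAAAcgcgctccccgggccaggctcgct
*HSPA1A*, chr6:31815293-31815542, forward strand: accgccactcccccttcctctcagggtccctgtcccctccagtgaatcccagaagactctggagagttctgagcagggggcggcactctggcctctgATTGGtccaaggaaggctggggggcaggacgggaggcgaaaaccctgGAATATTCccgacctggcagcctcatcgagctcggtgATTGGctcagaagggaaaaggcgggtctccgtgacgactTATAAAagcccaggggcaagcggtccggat
*TXNIP*, chr1:145996580-145996829, reverse strand: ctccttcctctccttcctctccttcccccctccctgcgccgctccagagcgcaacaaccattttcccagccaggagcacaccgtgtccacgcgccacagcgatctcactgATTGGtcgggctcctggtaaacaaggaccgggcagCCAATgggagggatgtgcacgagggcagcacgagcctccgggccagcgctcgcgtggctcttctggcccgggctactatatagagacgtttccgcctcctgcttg
*ARRDC4*, chr15:97960453-97960702, forward strand: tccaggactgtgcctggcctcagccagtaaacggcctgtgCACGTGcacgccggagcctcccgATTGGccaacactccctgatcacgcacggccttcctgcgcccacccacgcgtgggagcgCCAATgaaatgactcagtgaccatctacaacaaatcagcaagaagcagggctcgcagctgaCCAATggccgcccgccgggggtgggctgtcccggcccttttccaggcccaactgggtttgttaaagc
*SLC44A2*, chr19:10602205-10602454, forward strand: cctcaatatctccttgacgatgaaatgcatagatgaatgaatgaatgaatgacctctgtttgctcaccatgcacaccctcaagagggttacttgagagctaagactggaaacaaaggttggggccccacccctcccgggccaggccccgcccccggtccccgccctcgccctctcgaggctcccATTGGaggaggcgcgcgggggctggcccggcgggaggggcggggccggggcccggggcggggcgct

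A single RefSeq start was used for each gene, and other starts of the same gene were not searched. The start used for *ATF3* lies at the upstream end of that gene's range. This window of *ATF3* held the C/EBP and ATF core 191 bases before the start. The window of *DUSP1* held a cyclic AMP response element 125 and an E-box 108 bases before its start. The promoter of *HSPA1A* had a heat shock element core at 106 bases, and that of *ARRDC4* an E-box at 210 bases. The window of *TXNIP* held CCAAT boxes and that of *SLC44A2* a single one, with none of the other capitalized motifs. Only the letters given above were searched. Variants of the E-box were not, so a window without CACGTG may still hold such a site. Over the genes whose promoter was matched by symbol, the TATA box was found in 14.9% of 94 promoters of genes higher with gag, 3.77% of 53 of genes lower and 6.26% of 13044 of all genes tested. The cyclic AMP response element was in 6.38%, 1.89% and 2.75%, the C/EBP and ATF core in 5.32%, 0% and 1.46%, and the heat shock element core in 8.51%, 1.89% and 4.26%. The E-box was in 10.6%, 9.43% and 8.52% and the CCAAT box in 39.4%, 43.4% and 34.5%. The antioxidant core was in 10.6%, 7.55% and 11.9% and the GC box in 63.8%, 71.7% and 64.3%. A match is a run of letters in these windows and was not related to binding here.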

How the data were processed

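Poly(A) RNA libraries were prepared with the Tecan Universal Plus mRNA-Seq kit. Per the labels and methods, the authors aligned paired reads to GRCh38.p13 with STAR 2.7.3, handled them with SAMtools 1.8 and made the deposited raw counts per gene symbol with featureCounts. The annotation release, strand setting and treatment of reads with several positions are not given in the sources used here.

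Counts of 12 libraries were fitted with edgeR 4.0.16 in R 4.3.3 (TMM; filterByExpr, minimum count 10, minimum total 15; robust quasi-likelihood) with construct and replicate number as terms, leaving 6 residual degrees of freedom. P-values were adjusted over 17176 genes by Benjamini-Hochberg. Standard errors were derived as the size of the log2 fold change divided by the square root of the quasi-likelihood F statistic. Same-numbered libraries correlated at 0.26 to 0.79 after removal of construct means, and others at -0.75 to 0.13. Removal of these means tends to make the second range negative where the first is positive, so the second adds no separate support. The numbers were taken as pairing (harvest date in the authors' model). Replicates exceeded sampling noise (chi-square per degree of freedom 47.4 to 67.7). Depth was 30625725 to 45316749 counts per library. Normalized counts are counts per TMM-scaled library size times the mean total of 37579187. In pairs, 0.5 was added to counts.

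The genes and lists were chosen with earlier results of these data known. Named were the 14 largest rises and falls among called genes at 1 log2 CPM or more that moved alike in 3 pairs, the 5 largest under it in each direction, called list members, all alpha-arrestins, ubiquilins and genes near *PEG10*, *TXNIP* and *DCLK1*. The actin, NF-kappaB, apoptosis, ribosome biogenesis, lysosome and *ZNF* lists, the genes given for comparison in lists, the heart muscle genes and those named for differences between constructs were chosen after values were seen. Positions are from GENCODE release 44 and promoters from RefSeq (GRCh38.p14). DESeq2 1.42.0, limma-voom 3.58.1, other scaling factors, filters, terms and left-out libraries were tried. The script was tested on simulated counts.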

Additional observations from a re-analysis of the deposited data

How the results depend on the processing

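The numbers of changed genes depended on how libraries and replicate numbers entered the fit. DESeq2 called 442 genes (260 higher, 182 lower), of which 94 differed from gag-pol and 250 from NC. With no filter on low counts these were 372 (237 and 135), 92 and 223. With no replicate block edgeR called 1 gene (0 higher, 1 lower, 600 at an unadjusted p under 0.05), and 0 and 0 of it differed from the other constructs. With only gag and control libraries there were 343 genes (217 and 126) with the replicate block and 2 (1 and 1), *SLC44A2* and *COL1A2*, without it. Direct contrasts could not be had in those fits. Single libraries left out gave 32 to 425 genes (24 to 246 higher, 6 to 179 lower), of which 3 to 166 differed from gag-pol and 16 to 321 from NC. The count was 34, 58 and 425 without control replicates 1, 2 and 3, 32 and 91 without gag replicates 1 and 2, and 280 without gag-pol replicate 3, and 65 genes differed from NC without NC replicate 1. Replicate numbers left out gave 21, 66 and 730 genes without numbers 1, 2 and 3 (18 to 358 higher, 3 to 372 lower), with 1 to 152 and 10 to 555 that differed from gag-pol and NC. Over all genes, 122 to 1849 differed from gag-pol and 939 to 3555 from NC with 1 library left out, 12 to 747 and 341 to 3418 with 1 replicate number left out, and 0 and 0 with no replicate block; from gag-pol it was 122, 473 and 530 without gag replicates 1, 2 and 3, 565 and 130 without gag-pol replicates 1 and 3 and 1849 without control replicate 3, and from NC 939 and 1657 without gag replicates 1 and 2 and 1353 without NC replicate 1. Of the 185 genes, 133 were called in all 11 alternatives that kept the block and every library, and 28 with each single library left out. In no alternative did a named gene that was called change direction. Weakly expressed genes, such as *HIST1H2AH* and *COL1A2*, rest on few counts, and intervals cover the spread between these libraries only.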

Other observations

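The heart muscle genes of gag replicate 2 included sarcomere, calcium handling and hormone genes. *MYH7*, the ventricular myosin heavy chain, had 743 counts there and at most 12 in any other library. *NPPA* and *NPPB*, the natriuretic peptides, had 688 and 648, with at most 28 and 5 elsewhere. *MYL7*, an atrial myosin light chain, had 757 against at most 1, and *PLN*, phospholamban, 192 against at most 14. The 27 genes had 18421 counts in this library and 68 to 191 in each of the others. *ANKRD1*, an ankyrin repeat gene of heart muscle and of YAP signaling, was at 49.8, 43.5 and 57.0 normalized counts in control and at 272, 1153 and 116 with gag, and its log2 fold change of 3.07 did not pass edgeR's test (adjusted p = 0.221).

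Base composition is given as a description, without a test. The median GC content of the longest annotated transcript was 58.5% over 65 lower genes, 51.1% over 119 higher genes and 48.8% over 16331 genes tested that had a value. Median transcript lengths were 3944, 3743 and 3632 bases. With a trend on GC content and length removed together with the replicate block, 241 genes were called (160 higher, 81 lower), among them 175 of the 185.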
